A study of Homo sapiens with 16 samples.

Results

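The regions described here are 10731 intronic or intergenic stretches of the hg38 genome at which the submitters' merging step found a single ATAC-seq peak, and at which H3K27ac was then counted by ChIP-seq in THP-1 cells. They were taken from a table of 151654 regions by the annotation, which had to start with intron or Intergenic, and by the number of peaks merged, which had to be 1. No H3K27ac value entered that choice. The table counts sequenced tags in windows of 1000 bp around merged ATAC-seq peaks, ATAC-seq being a transposase assay of open DNA, and each of the 8 ATAC-seq libraries had its own list of peaks. A single-peak region was therefore in 1 of 8 lists and in only 1 of the 2 replicate lists of a condition. The 33195 intronic or intergenic regions merged from 8 peaks served as the reference, and the whole set of such regions outside repeats numbered 73090.

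THP-1 is an established human monocytic line from an acute myeloid leukemia. The 4 groups were WT cells, USP18-/- cells, and each of these after IFNα at 1000 U/ml for 6 hours, with 2 biological replicates per group according to the labels. WT cells carried Cas9 only, or a control sgRNA by the protocol, and USP18 was deleted by CRISPR, so that both genotypes had been through lentiviral transduction. The knockout cells came from sorted single cells, and how many clones stand behind the ChIP libraries was not given in the sources used here. Where nothing says that replicates came from separate clones, p-values measure the spread between cultures and libraries of the same line.

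H3K27ac, the acetyl mark on lysine 27 of histone H3, lies at active promoters and enhancers, and its level at distal open sites rises when transcription factors recruit acetyltransferases. Type I IFN signals through its receptor and JAK kinases to a factor complex that binds the interferon-stimulated response element (ISRE), and USP18 is a feedback inhibitor of that receptor and the protease that removes ISG15 from proteins. In monocytic cells, distal elements also carry sites for PU.1, C/EBP, RUNX and AP-1, the factors that set and modify the myeloid program.

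The regions of the table held 9046141 to 12935454 tags per library. At the USP18 promoter, H3K27ac in CPM (tags of a region scaled to the library's tags in all regions times its TMM factor, 0.880 to 1.09) was 7.85 and 7.62 in WT, 18.0 and 15.0 in WT with IFN, 8.20 and 8.42 in USP18-/- and 49.2 and 41.6 in USP18-/- with IFN. This window does not test the deletion itself. All 6 monocyte markers examined had a region at their promoter, with a summed level of 121 to 132 CPM in the WT libraries and 156 to 193 CPM in the USP18-/- libraries. Of the markers of other cells, 2 of 6 for T cells (CD8A, under 1 CPM, and CD4, which monocytes also express), 3 of 5 for B cells, 0 of 6 for erythroid cells, 1 of 5 for epithelial cells and 1 of 5 for fibroblasts had one. The sums of those with a region also moved with the genotype, without overlap. The T cell sum was 6.25 to 8.13 CPM in the 4 WT libraries and 12.2 to 15.9 in the 4 USP18-/- libraries, the B cell sum 8.08 to 10.3 and 10.9 to 15.2, the fibroblast sum 1.98 to 2.59 and 3.28 to 5.21, and the epithelial sum 0.991 to 1.44 and 0.355 to 0.798 CPM. Their part in the differences between genotypes was not tested.

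Most of the single-peak regions raised by IFN in USP18-/- cells had their peak in the ATAC-seq lists of USP18-/- cells with IFN (375 of 526). These lists held 2758 of the 7669 single-peak regions tested. The 526 were 6.86% of the 7669, against 7.14% of all tested regions. Of the 526, 73 lay under 1 CPM (geometric mean of the 8 libraries), as did 2598 of the 7669. A region so low could be tested through 1 high group alone. An ISRE lay at the centre of 142 of the 526 and of 478 of the 7669. The 40 bp around the motif are therefore shown for the 6 ISRE-bearing regions with the largest rises whose window overlapped no other and whose mean was at least 1 CPM, on the motif's strand, with capitals for the repeated GAAA of the ISRE (GAAA, any 2 bases, GAAA). Only 1 match per site is in capitals, and further matches in the CDRT15P1 and DNAJC7 sites stand in small letters. Each is named by its nearest promoter, which says nothing of the gene it acts on.

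CDRT15P1 chr17:13962971-13963010 (+): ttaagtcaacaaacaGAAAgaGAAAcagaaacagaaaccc
DNAJC7 chr17:42000558-42000597 (+): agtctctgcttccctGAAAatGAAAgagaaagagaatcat
KCNJ2 chr17:70344494-70344533 (-): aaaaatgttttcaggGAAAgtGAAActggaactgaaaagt
PRR5 chr22:44652440-44652479 (+): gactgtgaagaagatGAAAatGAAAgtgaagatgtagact
DNAJC15 chr13:43049703-43049742 (-): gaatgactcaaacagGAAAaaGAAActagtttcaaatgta
MBTD1 chr17:51224544-51224583 (-): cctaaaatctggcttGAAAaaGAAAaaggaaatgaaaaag

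All 6 came from the ATAC-seq lists of USP18-/- cells with IFN, and their motifs lay 8 to 68 bp from the centre of the window. The DNAJC7, DNAJC15 and MBTD1 sites are intronic, and the other sites are intergenic. For contrast, the ISRE regions from the other lists with a mean of at least 2 CPM and the smallest fitted change with IFN in USP18-/- cells are shown next, also with GAAA in capitals.

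TOMM6 chr6:41784761-41784800 (-): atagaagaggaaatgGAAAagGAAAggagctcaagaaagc
CYB5B chr16:69436704-69436743 (-): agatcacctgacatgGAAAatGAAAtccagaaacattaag
PCED1B-AS1 chr12:47223142-47223181 (+): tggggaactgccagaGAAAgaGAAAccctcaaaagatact

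The short ISRE consensus is thus present both in regions that rose and in regions whose level hardly moved. The TOMM6 site also holds a further, overlapping match in small letters. In the TOMM6 region H3K27ac was 4.32 and 3.8 CPM in USP18-/- and 3.77 and 4.55 CPM with IFN, and the fitted log2 change was 0.03 ± 0.25 (SE). In the KCNJ2 region, nearest to a potassium channel gene, it was 0.349 and 0.481 CPM in USP18-/- and 7.59 and 7.28 CPM with IFN. The CDRT15P1, KCNJ2 and PRR5 regions reached 10 counts in 2 libraries, the limit for testing, only through the USP18-/- + IFN group. These regions had to rise, so their changes support nothing.

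Single-peak regions were weakly acetylated. Their median held 9 to 10 tags per library against a genome average of 8.41 to 10.4 tags per 1000 bp, and 46.7% to 53.0% of them were below that average. In CPM the median was 0.930 and 0.908 in WT, 0.941 and 0.923 in WT with IFN, 0.873 and 0.866 in USP18-/-, and 0.888 and 0.939 in USP18-/- with IFN. The median of 8-peak regions was 1.5 to 1.77 CPM, and the single-peak median was 0.513 to 0.625 of it within each of the 8 libraries. Averaged over libraries the median rose from 0.908 CPM at 1 peak to 1.06 at 4, 1.11 at 7, 1.64 at 8 and 4.01 at more than 8 peaks. The submitters' ATAC-seq peak score, a number given by their peak merging, had a median of 5.43 in single-peak and 18.5 in 8-peak regions. Set over the genome average of its own library, the single-peak median was 1.04 to 1.09 in the WT libraries. It was 0.937 to 0.990 in the USP18-/- libraries, which did not overlap. The 8-peak median was also apart, at 1.99 to 2.03 in WT and 1.54 to 1.73 in USP18-/- libraries, so this is not particular to single-peak regions.

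**Figure D1:**
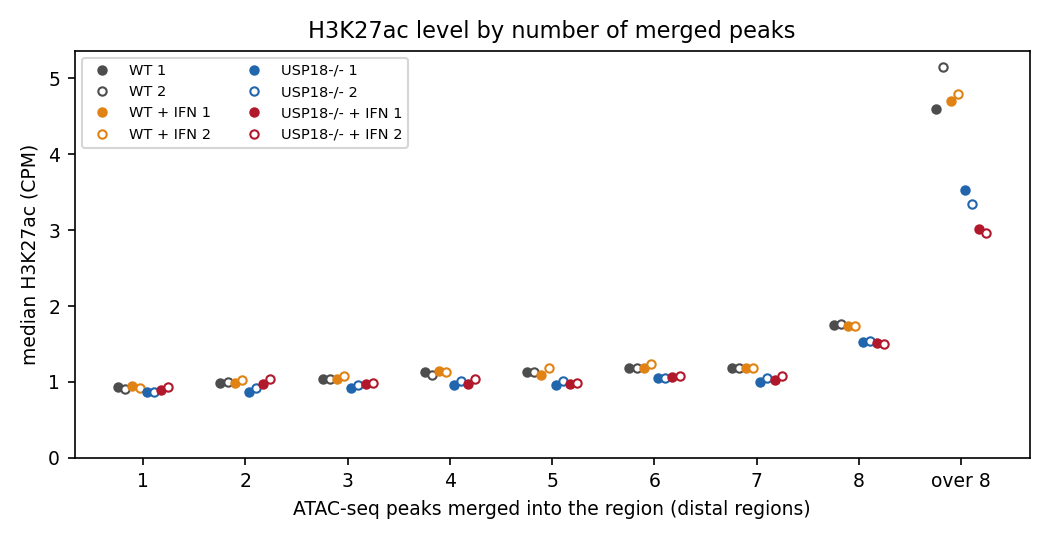
Median H3K27ac (CPM, y axis) of distal regions by the number of ATAC-seq peaks merged into them (x axis), with 1 point per library and colours for the 4 groups. Single-peak regions sit at 0.866 to 0.941 CPM in all 8 libraries and 8-peak regions at 1.5 to 1.77 CPM.

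Single-peak regions held 8.51% and 8.58% of the tags in distal regions in WT, 8.48% and 8.54% in WT with IFN, 8.14% and 8.39% in USP18-/- and 8.42% and 8.80% in USP18-/- with IFN, so the groups overlapped. As a share of tags in all regions they held 3.06% to 3.19% in the 4 WT libraries and 2.72% to 2.85% in the 4 USP18-/- libraries, without overlap. The share held by 8-peak regions was likewise lower in every USP18-/- library than in every WT library, so this is not particular to single-peak regions. Of the single-peak regions, 5955 (55.5%) were intronic and 4776 (44.5%) intergenic. Their median distance to a transcription start site was 29914 bp against 26941 bp in 8-peak regions, and their mean GC content was 47.9% ± 8.98 (SD over regions) against 49.6%. The annotation alone did not keep promoter-proximal sites out, since 777 (7.24%) lay within 3000 bp of a start site, as did 7.10% of 8-peak regions. The windows of 3002 (28.0%) overlapped another window, so these regions share tags with a neighbour.

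Changes were tested in all 123276 regions that reached 10 counts in 2 or more libraries, which kept 7669 single-peak regions (71.5%) and 27305 8-peak regions (82.3%). A region that passed this filter only through the group in which it was high had to differ, and regions below it were not tested. Calls needed a fold change over 2 and an adjusted p under 0.05 by the quasi-likelihood test of edgeR, adjusted after Benjamini and Hochberg over all tested regions. IFN in WT cells left single-peak regions nearly without calls, with 15 higher (0.196%, against 0.344% of all tested regions) and 7 lower (0.0913%, against 0.0381%). At an unadjusted p under 0.05 there were 309 higher and 301 lower, and DESeq2 called 13 higher and 0 lower. The 7 fell to 2 when WT replicate 1, WT replicate 2, WT + IFN replicate 1 or WT + IFN replicate 2 was left out.

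In USP18-/- cells IFN raised 526 single-peak regions (6.86%, against 7.14% of all tested regions) and lowered 273 (3.56%, against 4.28%). Of 8-peak regions, 7.40% were higher and 5.91% lower. The difference of the IFN effects, itself tested in that fit, was called in 316 single-peak regions in which the effect was larger in USP18-/- cells (4.12%, against 4.66%) and in 135 in which it was smaller (1.76%, against 2.51%). Of the 15 regions that IFN raised in WT cells, 14 (93.3%) were among the 526 raised in USP18-/- cells, of which they made up 2.66%. None of the 7 that fell in WT cells was among the 273. The shares of single-peak regions called thus lay near or below those of the whole table. Against 8-peak regions the share raised by IFN in USP18-/- cells was -0.54 percentage points apart, which turned to 0.26 with a filter on the mean of the 8 libraries.

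Without IFN, 335 single-peak regions were higher in USP18-/- than in WT cells (4.37%, against 5.66% of all tested regions) and 796 were lower (10.4%, against 10.8%). With IFN, 725 were higher (9.45%, against 11.3%) and 919 lower (12%, against 13.4%). The 2 comparisons share no library. They had 186 higher regions in common, which were 55.5% of the untreated and 25.7% of the IFN set, and 483 lower regions, 60.7% and 52.6%. Of 8-peak regions, 5.90% were higher and 11.5% lower without IFN, and 10.8% and 16.1% with IFN. The difference in the share lower without IFN, -1.15 percentage points from 8-peak regions, turned to 0.48 with the filter on the mean.

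Scaling decided part of the balance between higher and lower calls. Scaling by the sum of counts in place of TMM shifted the median log2 change of all regions by -0.14 for USP18-/- against WT without IFN, by -0.28 with IFN, by -0.13 for IFN in USP18-/- and by 0.0026 for IFN in WT. The single-peak calls then became 242 higher and 1023 lower without IFN, so that 19.1% of calls were higher in place of 29.6%. With IFN they became 491 and 1399 (26% in place of 44.1%), for IFN in USP18-/- 442 and 389 (53.2% in place of 65.8%), and for the difference of the IFN effects 266 and 211 (55.8% in place of 70.1%).

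The list from which the single peak came separated the regions. The ATAC-seq lists of USP18-/- cells with IFN gave 3814 single-peak regions (35.5%), those of WT 2627, those of WT with IFN 1711 and those of untreated USP18-/- cells 2579. Among the 2758 tested regions from the USP18-/- + IFN lists, IFN raised 375 in USP18-/- cells (13.6%) and lowered 48 (1.74%). Of these, 964 of the tested and 64 of the raised regions lay under 1 CPM (geometric mean of the 8 libraries). A region so low could pass the filter through 1 high group alone. Among the 4911 from the other lists, 151 rose (3.07%) and 225 fell (4.58%), and over all tested regions 7.14% rose and 4.28% fell. The replicate lists gave like values, with 14.9% raised in list 1 and 12.2% in list 2 of USP18-/- cells with IFN, and 2.40% to 4.44% in the other 6 lists. With windows that overlapped no other, 227 of 1824 regions of the USP18-/- + IFN lists rose (12.4%) and 16 fell (0.877%). The same lists held 208 of the 316 regions with a larger IFN effect in USP18-/- cells, and 9 of the 15 raised in WT cells. They held 2758 of the 7669 single-peak regions tested.

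Mean levels followed the calls. Regions of the USP18-/- + IFN lists averaged 2.38 and 2.38 CPM in WT, 2.43 and 2.48 in WT with IFN, 2.41 and 2.47 in USP18-/-, and 3.22 and 3.28 in USP18-/- with IFN. The last 2 libraries stood above the other 6, by a ratio of 1.33 to untreated USP18-/- cells, and of 1.37 over regions that overlapped no other. Regions of the WT lists averaged 2.94 and 2.94 CPM in WT, 2.83 and 2.86 in WT with IFN, 2.47 and 2.51 in USP18-/- and 2.63 and 2.71 in USP18-/- with IFN, with all USP18-/- libraries below all WT libraries. Of the tested regions of the WT lists, 283 of 1891 were lower in untreated USP18-/- than in WT cells (15.0%) and 51 higher (2.70%), whereas 147 of 1791 from the untreated USP18-/- lists were lower (8.21%) and 96 higher (5.36%). The background was 10.8% lower and 5.66% higher.

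**Figure D2:**
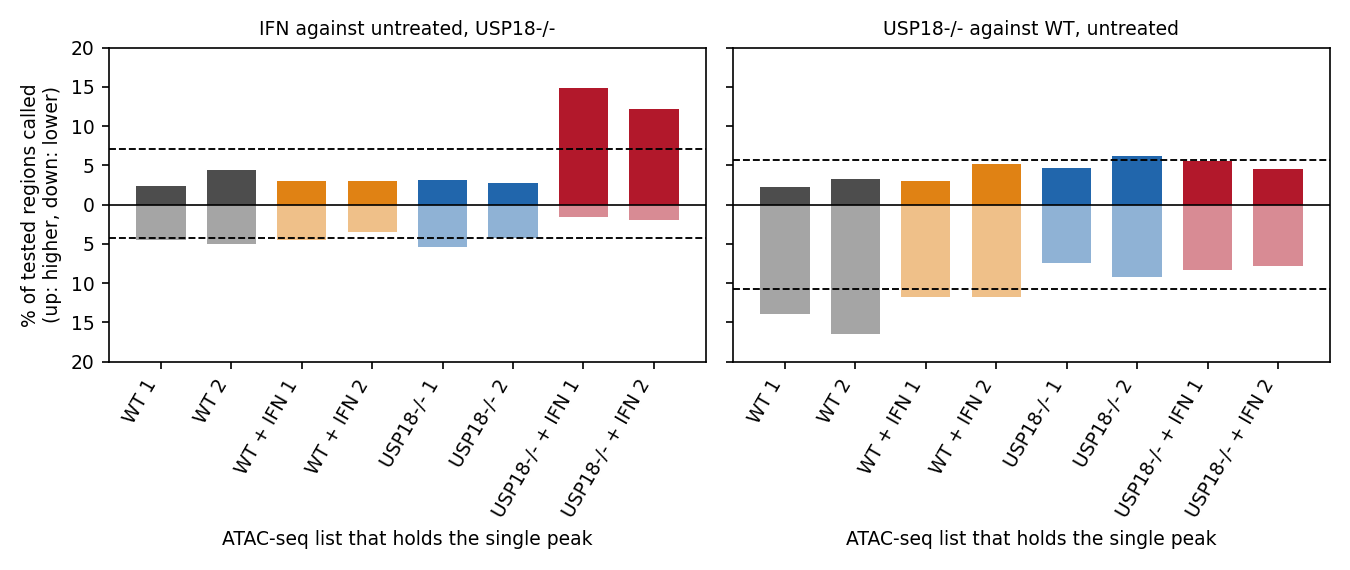
Percent of tested single-peak regions called higher (bars up, dark) and lower (bars down, light) by the ATAC-seq list that holds the peak (x axis), for IFN in USP18-/- cells (left) and USP18-/- against WT without IFN (right). Dashed lines give the share of all tested regions, and only the bars of the USP18-/- + IFN lists (14.9% and 12.2%) pass the upper line of 7.14% on the left.

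The shares by list were also taken within bands of H3K27ac level (geometric mean CPM of the 8 libraries), in which every region from 1 CPM upward was tested. At 1 to 2 CPM IFN raised 13.2% of the regions of the USP18-/- + IFN lists and 2.39% of the other single-peak regions, against 5.37% of 8-peak regions, and at 2 to 4 CPM the shares were 22.8%, 4.43% and 10.1%. At 4 to 8 CPM they were 25.2%, 7.39% and 11.5%, and over 8 CPM 19.2%, 8.99% and 9.51%. In each of these 4 bands the USP18-/- + IFN lists were highest and the other lists lowest. The level includes the USP18-/- + IFN libraries, so a region high in them alone can lie in these bands too. That order is therefore a description and supports nothing. Under 1 CPM the shares of tested regions were 6.64%, 0.551% and 1.97%, but only 964 of 2020 regions of the USP18-/- + IFN lists were tested there, and a region so low could pass the filter through the group in which it was high, so this band supports nothing. Regions merged from 2 peaks showed the same order, since 559 of 1744 whose peaks came from both USP18-/- + IFN lists rose (32.1%) and 117 of 3386 other 2-peak regions did (3.46%).

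**Figure D3:**
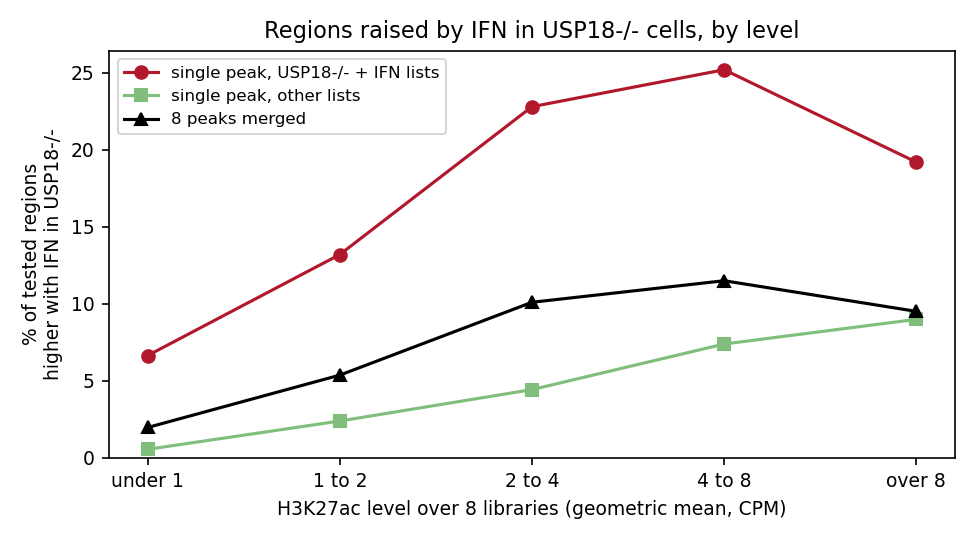
Percent of tested regions called higher with IFN in USP18-/- cells (y axis) in 5 bands of H3K27ac level (x axis, geometric mean CPM of 8 libraries). In the lowest band fewer than all regions passed the filter (964 of 2020 for the USP18-/- + IFN lists). The level includes the USP18-/- + IFN libraries, so a region high in them alone can lie in a higher band. The line of the USP18-/- + IFN lists runs from 6.64% to 25.2% and lies above that of 8-peak regions, and the line of the other single-peak regions (0.551% to 8.99%) lies below it.

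Motifs were searched on both strands in the 200 bp at the centre of each window. The ISRE was found in 656 single-peak regions (6.11%), in 4.60% of 8-peak regions and in 5.43% of all regions. It was found in 12.3% of the regions of the USP18-/- + IFN lists, with 13.3% and 11.3% in the replicate lists, and in 2.97%, 2.75% and 2.37% of the regions of the WT, WT + IFN and USP18-/- lists. AP-1 (TGANTCA), the site of FOS and JUN dimers, was in 24.1% of the USP18-/- + IFN list regions, 13.2% of WT + IFN, 8.34% of WT and 4.81% of USP18-/- list regions, and in 12.9% of all regions. PU.1 (GAGGAAGT), the site of the ETS factor that defines myeloid cells, ran the other way with 8.60% in WT, 7.02% in USP18-/-, 5.49% in WT + IFN and 3.20% in USP18-/- + IFN list regions, and with 6.40% in all regions. The 721 ISRE matches had a median distance of 36.5 bp from the centre, and 11 of them overlapped a match of another motif.

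Of the remaining motifs, CTCF (AGNGGGCG), the site of the insulator factor, differed most in share between single-peak and 8-peak regions. It was in 2.43% of single-peak, 5.53% of 8-peak and 6.39% of all regions. C/EBP (TTGCNNAA) was in 15.5%, 18.4% and 16.4%, RUNX (TGTGGTT) in 7.04%, 8.88% and 7.05%, Chop (TGATGCAA), the composite site of the stress-response factors ATF4 and CHOP, in 1.86%, 2.06% and 1.88%, and NF-kB (GGANTTTCC) in 0.951%, 1.01% and 0.861%. A match is a run of letters and not a bound site.

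**Figure D4:**
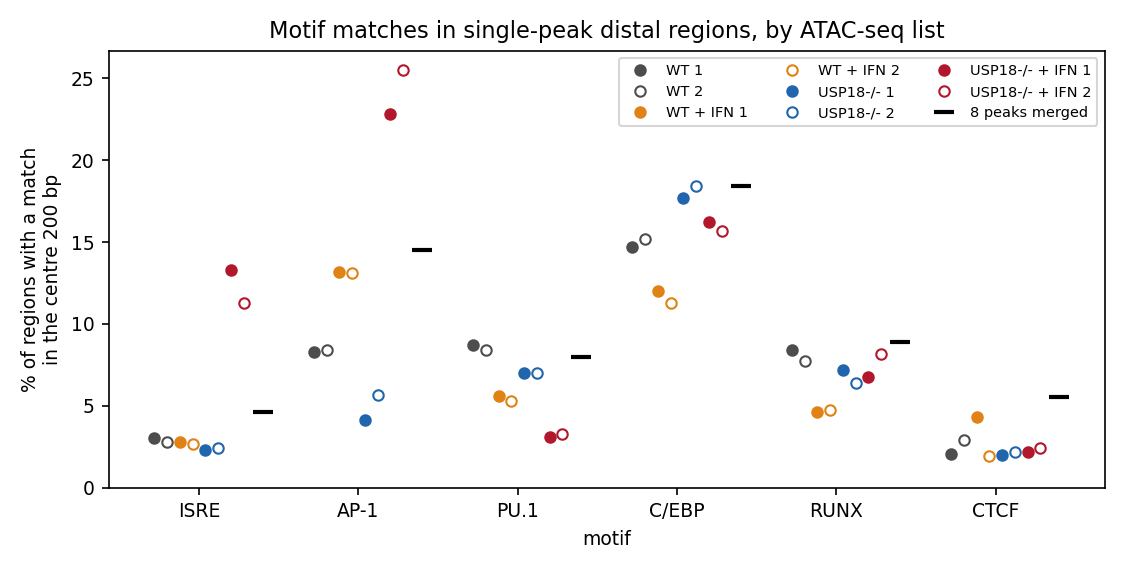
Percent of single-peak regions with a motif match in the centre 200 bp (y axis) for 6 motifs, with 1 point per ATAC-seq list and a dash for 8-peak regions. ISRE (13.3% and 11.3%) and AP-1 (22.8% and 25.5%) are highest in the USP18-/- + IFN lists, and PU.1 (3.13% and 3.27%) is lowest there.

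Of the 478 tested single-peak regions with a central ISRE, IFN raised 142 in USP18-/- cells (29.7%) and lowered 6, and of the 7191 without one it raised 384 (5.34%), against 7.14% of all tested regions. In WT cells it raised 4 of the 478, and 0.344% of all tested regions. The share raised in USP18-/- cells was 28.4% with 1 match and 42.2% (19 of 45) with at least 2. It was 12.1% where the ISRE lay only in the outer part of the window and 4.31% where the window had none. Within the USP18-/- + IFN lists 128 of 347 regions with an ISRE rose (36.9%), and 247 of 2411 without it (10.2%). These shares include regions that could pass the filter only through the group in which they were high. Among 8-peak regions 475 of 1362 with an ISRE rose (34.9%). AP-1 gave a smaller contrast, with 87 of 1055 single-peak regions raised (8.25%) against 6.64% without the motif, and within the USP18-/- + IFN lists the share was 10.6% with and 14.5% without AP-1. For USP18-/- against WT without IFN, 28 of 153 regions with the Chop motif were higher (18.3%). The share was 4.08% without it and 5.66% over all tested regions. Of regions with C/EBP, 168 of 1145 were lower (14.7%), against 9.63% without it and 10.8% of all tested regions. These are 2 of many combinations of motif, comparison and direction. They are not set against 8-peak regions here, so they cannot be called particular to single-peak regions.

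The largest rises with IFN in USP18-/- cells are best seen in the tag levels. At the DNAJC7 region (chr17:42000089-42001089, intron 1 of 13 of DNAJC7, which encodes an Hsp40 co-chaperone), H3K27ac was 0.981 and 1.13 CPM in WT, 2.13 and 1.38 in WT with IFN, 1.31 and 0.722 in USP18-/-, and 32.2 and 30.7 in USP18-/- with IFN. The 2 treated knockout libraries lay far above the other 6. The log2 change with IFN was 4.89 ± 0.23 (SE) in USP18-/- cells (edgeR adjusted p = 8.59e-33) and 0.70 ± 0.39 in WT cells (edgeR adjusted p = 0.623). The centre of this window holds a run of 3 GAAA repeats spaced by 2 bases, in capitals, which gives 2 overlapping ISRE matches.

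DNAJC7 chr17:42000489-42000688 (+): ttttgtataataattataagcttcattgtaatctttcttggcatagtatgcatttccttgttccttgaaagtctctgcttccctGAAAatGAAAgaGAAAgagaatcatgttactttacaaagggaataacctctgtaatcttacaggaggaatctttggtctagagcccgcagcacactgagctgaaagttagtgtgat

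The PARP15 region (chr3:122608615-122609615, intron 2 of 11 of a gene for an ADP-ribosyltransferase) held 0.981 and 1.72 CPM in WT, 2.73 and 3.64 in WT with IFN, 1.13 and 1.06 in USP18-/-, and 17.5 and 23 in USP18-/- with IFN. Its log2 change was 4.19 ± 0.25 in USP18-/- cells (edgeR adjusted p = 7.20e-26) and 1.20 ± 0.34 in WT cells (edgeR adjusted p = 0.0688). The IQSEC1 region (chr3:13149405-13150405, intergenic, 76788 bp upstream of a gene for an ARF exchange factor) held 1.03 and 1.32 CPM in WT, 0.595 and 0.308 in WT with IFN, 0.436 and 0.818 in USP18-/- and 8.21 and 8.17 in USP18-/- with IFN. The PARP15 region thus lay above untreated WT in both treated WT libraries, whereas the IQSEC1 region lay below it in both. The PRR5 region (chr22:44651963-44652963, intergenic, 16084 bp upstream of a gene for an mTORC2 subunit) held 0.258 and 0.635, 0.694 and 0, 0.175 and 0.674, and 6.92 and 7.46 CPM in the same order of groups. The CDRT15P1 region (chr17:13962554-13963554, intergenic, nearest to a pseudogene) held 0.878 and 0.545, 0.991 and 0.718, 0 and 0.289, and 6.30 and 5.68 CPM. The PRR5 and CDRT15P1 regions passed the filter only through the USP18-/- + IFN group, so they had to rise.

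Of the 3 regions named for their rise with IFN in WT cells, those at EPHB2 and TOR1B rose further in USP18-/- cells. The EPHB2 region (chr1:22708452-22709452, intergenic, 1886 bp upstream of the gene of an ephrin receptor kinase) held 2.48 and 1.54 CPM in WT, 7.14 and 7.33 in WT with IFN, 1.75 and 1.11 in USP18-/-, and 20.0 and 17.5 in USP18-/- with IFN. The log2 rise was 1.86 ± 0.26 in WT (edgeR adjusted p = 2.97e-07) and 3.67 ± 0.24 in USP18-/- cells (edgeR adjusted p = 2.87e-24), and the difference of 1.81 ± 0.40 passed the test (edgeR adjusted p = 0.000528) but not without WT replicate 1 (1.45). The TOR1B region (chr9:129805953-129806953, intron 2 of 4 of a gene for a torsin ATPase) held 3.51 and 4.27, 10.4 and 11.3, 3.84 and 6.69, and 41.9 and 51.0 CPM, with no overlap between treated and untreated libraries in either genotype. The rise was 1.47 ± 0.21 (log2) in WT and 3.15 ± 0.16 in USP18-/- cells (edgeR adjusted p = 4.03e-07 and 3.01e-30), and the difference was 1.68 ± 0.29 (edgeR adjusted p = 3.89e-06). It holds no ISRE at its centre but the AP-1 match shown in capitals.

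TOR1B chr9:129806353-129806552 (+): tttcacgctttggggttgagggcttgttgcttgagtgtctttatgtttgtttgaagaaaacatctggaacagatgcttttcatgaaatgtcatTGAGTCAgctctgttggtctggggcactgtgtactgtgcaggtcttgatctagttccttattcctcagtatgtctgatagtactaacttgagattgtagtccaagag

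The third was the PAK6 region (chr15:40262748-40263748, intron 3 of 10 of a kinase gene, with an ISRE), at 0.207 and 1.13 CPM in WT, 2.33 and 2.62 in WT with IFN, 0.698 and 1.40 in USP18-/- and 1.42 and 1.55 in USP18-/- with IFN. It was called in WT (log2 1.79 ± 0.46, edgeR adjusted p = 0.0269) and not in USP18-/- cells (0.51 ± 0.45, edgeR adjusted p = 0.493). The difference between the genotypes missed the threshold (-1.28 ± 0.66, edgeR adjusted p = 0.239), and the call in WT was lost without WT replicate 1 (1.09), WT + IFN replicate 1 (1.87) or WT + IFN replicate 2 (1.71).

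Falls with IFN were smaller. In WT cells the MIR4704 region (chr13:66220170-66221170, intergenic, nearest to a microRNA gene) went from 9.40 and 7.08 to 3.02 and 3.95 CPM, and was at 0.577 to 1.11 CPM in the 4 USP18-/- libraries. The log2 change in WT was -1.21 ± 0.25 (edgeR adjusted p = 0.00153) and was no longer called without WT replicate 1 (-1.0) or WT + IFN replicate 1 (-1.03). The CERS3 region (chr15:100521290-100522290, intron 2 of 12 of a ceramide synthase gene) went from 7.13 and 6.85 to 2.97 and 3.85 CPM in WT (-1.03 ± 0.25, edgeR adjusted p = 0.0196), a call that was lost without any 1 of these 4 libraries, at -0.84 to -1.24. In USP18-/- cells the LOC101927914 region (chr7:157440279-157441279, intergenic) went from 10.1 and 11.7 to 1.78 and 3.24 CPM, against 25.7 to 29.7 in the 4 WT libraries. Its log2 change was -2.11 ± 0.22 (edgeR adjusted p = 9.62e-14). The LHX3 region (chr9:136174850-136175850, intergenic, nearest to a homeobox gene) went from 4.01 and 5.29 to 1.24 and 1.36 CPM in USP18-/- cells (-1.80 ± 0.34, edgeR adjusted p = 9.52e-06), against 0.595 to 1.5 CPM in WT libraries. The LOC100996664 region (chr14:68501212-68502212, intron 10 of 10 of RAD51B) went from 2.05 and 2.41 to 0.222 and 1.03 CPM, a call that was lost without USP18-/- + IFN replicate 1 (-1.14).

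**Figure D5:**
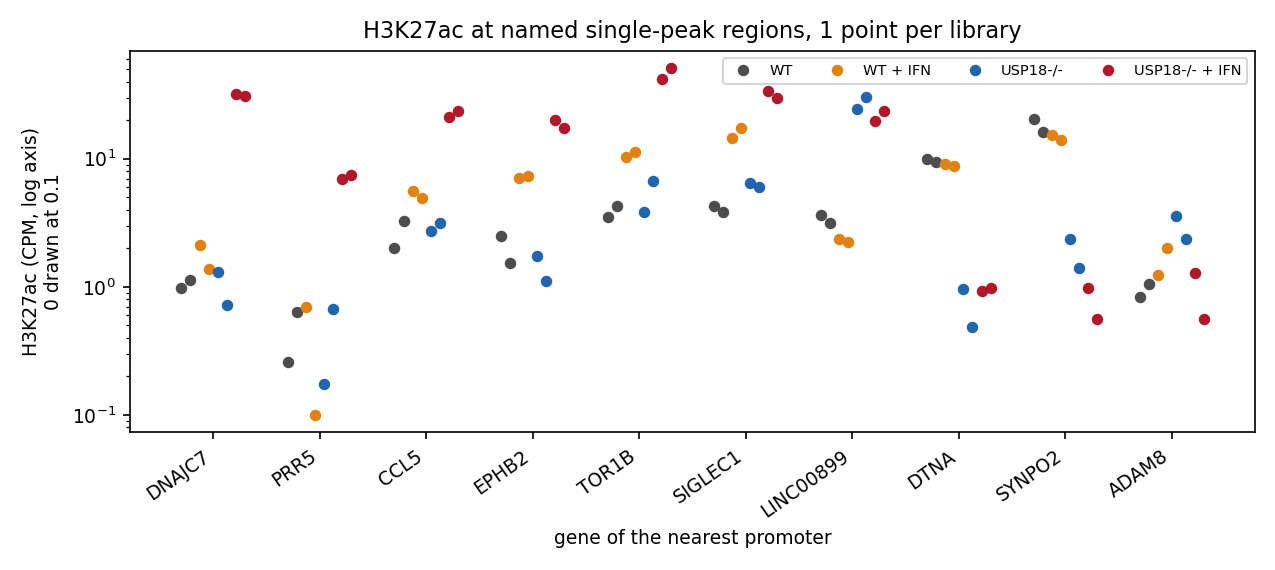
H3K27ac (CPM, log axis) in each of the 8 libraries at 10 named single-peak regions, labelled by the nearest promoter, with colours for the groups and a value of 0 drawn at 0.1. The USP18-/- + IFN libraries stand alone at DNAJC7 (32.2 and 30.7 CPM) and PRR5 (6.92 and 7.46 CPM), and the 4 USP18-/- libraries lie below the 4 WT libraries at DTNA and SYNPO2. The PRR5 region passed the filter only through the USP18-/- + IFN libraries, so it had to rise. The SIGLEC1 window overlaps another window.

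Some single-peak regions differed between the genotypes irrespective of IFN. The LINC00899 region (chr22:46045706-46046706, intergenic, 1338 bp upstream of a long noncoding RNA gene) held 3.62 and 3.13 CPM in WT, 2.38 and 2.26 in WT with IFN, 24.3 and 30.4 in USP18-/- and 19.8 and 23.5 in USP18-/- with IFN. The log2 difference between USP18-/- and WT was 3.01 ± 0.19 without and 3.21 ± 0.21 with IFN (edgeR adjusted p = 5.61e-25 and 1.69e-24). The LOC100996654 region (chr7:54836914-54837914, intergenic) held 0.454 to 0.743 CPM in WT libraries and 3.91 to 4.84 CPM in USP18-/- libraries. The UST-AS1 region (chr6:148882998-148883998, intron 1 of 7 of the sulfotransferase gene UST) held 0.817 to 2.08 and 6.97 to 11.7 CPM. In all 3 the lowest USP18-/- library lay above the highest WT library, but regions were named only where the compared groups did not overlap. The LOC100996654 region held 5 to 7.5 tags in WT libraries. It passed the filter only through USP18-/- libraries, so it had to differ.

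Other regions had lost H3K27ac in USP18-/- cells. They too were named only where the compared groups did not overlap. The LGSN, PRDM10 and PABPC1P2 regions passed the filter only through WT libraries, so they had to differ. The SYNPO2 region (chr4:118938808-118939808, intron 1 of 4 of a gene for an actin-binding protein) held 20.4 and 16.2 CPM in WT, 15.3 and 14.1 in WT with IFN, 2.36 and 1.40 in USP18-/- and 0.976 and 0.563 in USP18-/- with IFN, a log2 difference of -3.24 ± 0.23 without and -4.22 ± 0.28 with IFN (edgeR adjusted p = 6.21e-22 and 8.98e-24). The DTNA region (chr18:34648851-34649851, intron 1 of 21 of the dystrobrevin alpha gene) held 8.72 to 10.0 CPM in WT libraries and 0.481 to 0.986 in USP18-/- libraries, with a log2 difference of -3.71 ± 0.31 without IFN (edgeR adjusted p = 3.90e-18). The BCL7A region (chr12:122008563-122009563, intergenic, 12823 bp upstream of a gene for a SWI/SNF subunit) held 15.5 and 11.3, 8.23 and 8.97, 1.88 and 2.31, and 0.355 and 1.08 CPM. The PRDM10 region (chr11:129964936-129965936, intron 1 of 21 of a zinc finger gene) held 2.31 to 4.90 CPM in WT and 0.175 to 1.13 in USP18-/- libraries, and the LGSN region (chr6:63024444-63025444, intergenic) 3.02 to 5.17 and 0 to 0.577 CPM. The PABPC1P2 region (chr2:146326058-146327058, intergenic, 260499 bp upstream of a pseudogene) held 3.69 to 5.85 and 0.433 to 0.888 CPM, and its centre has a PU.1 match, in capitals.

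PABPC1P2 chr2:146326458-146326657 (+): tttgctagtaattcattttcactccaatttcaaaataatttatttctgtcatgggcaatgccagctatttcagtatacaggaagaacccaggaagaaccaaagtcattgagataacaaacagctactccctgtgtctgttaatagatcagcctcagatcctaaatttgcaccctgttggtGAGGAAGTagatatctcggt

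Sorted by the gene of the nearest promoter, 28 of 90 interferon stimulated genes had a single-peak region, 39 regions in all, of which 28 were tested. IFN raised 7 of the 28 in USP18-/- cells (25%, against 7.14% of all tested regions) and lowered 0 by edgeR, by DESeq2 and at an unadjusted p under 0.05, and their median log2 change was 0.71 against -0.0064 over all regions. The 7 that rose included the regions at RTP4, CD274 and SIGLEC1. In WT cells IFN raised 2 of the 28 (7.14%, against 0.344% of all tested regions). The IFN effect was called larger in USP18-/- cells in 4 of the 28 (14.3%, against 4.66%). The region in the intron of RTP4, a chaperone for receptors and an antiviral gene, lies 275 bp from the start site (chr3:187368155-187369155) and held 12.5 and 13.3 CPM in WT, 19.1 and 19.5 in WT with IFN, 15.4 and 14.6 in USP18-/-, and 98.9 and 105 in USP18-/- with IFN. Its window overlaps another window, as do those of the CD274 and SIGLEC1 regions, so these regions share tags with a neighbour. The CD274 region (chr9:5445596-5446596, 4407 bp upstream of the gene of the checkpoint ligand PD-L1) held 2.01 and 2.77, 4.26 and 4.05, 2.49 and 1.88, and 25.7 and 25.3 CPM, with a log2 change of 3.5 ± 0.21 in USP18-/- cells (edgeR adjusted p = 6.75e-27). The SIGLEC1 region (chr20:3711023-3712023, 4395 bp upstream of the gene of sialoadhesin, with an ISRE) held 4.29 and 3.81, 14.6 and 17.3, 6.41 and 6.02, and 33.9 and 29.8 CPM. It rose in both genotypes, by 1.97 ± 0.19 and 2.35 ± 0.16 on the log2 scale (edgeR adjusted p = 1.70e-13 and 3.57e-23), and the difference missed the threshold (0.37 ± 0.26, edgeR adjusted p = 0.456).

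Of the 13 regions nearest to genes of the IFN receptor and its signalling, all tested, 0 were called with IFN in either genotype by edgeR or DESeq2. At an unadjusted p under 0.05, 2 were higher and 3 lower in USP18-/- cells, and 1 was higher and 1 lower in WT cells. The smallest p belonged to CISH, a feedback inhibitor of cytokine receptors, whose region (chr3:50601163-50602163) was at 50.7 and 58.4 CPM in USP18-/- and 38.3 and 43.1 with IFN, a log2 change of -0.42 ± 0.10. A second CISH window overlaps it. The region in intron 1 of 8 of the phosphatase gene PTPN1 (chr20:50518949-50519949) went from 5.15 and 2.41 to 8.12 and 5.02 CPM, so the groups overlapped.

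Of 14 tested regions nearest to NF-kB subunits, inhibitors and targets, 3 rose with IFN in USP18-/- cells (21.4%, against 7.14%), 0 fell, and 0 were called in WT cells, by edgeR and by DESeq2. At an unadjusted p under 0.05, 1 was lower in USP18-/- cells and 1 higher in WT cells. The CCL5 region (chr17:35889682-35890682, 9809 bp upstream of the chemokine gene, with an ISRE) held 2.01 and 3.27 CPM in WT, 5.55 and 4.92 in WT with IFN, 2.71 and 3.13 in USP18-/- and 21 and 23.7 in USP18-/- with IFN, and its log2 change was 2.92 ± 0.20 (edgeR adjusted p = 1.01e-22). CCL5 is also a known IFN target. The region upstream of NFKB1 (chr4:102453972-102454972, intron 1 of 4 of its antisense gene) went from 1.66 and 1.73 to 5.86 and 4.74 CPM and that in intron 2 of 10 of RELB (chr19:45008266-45009266) from 1.18 and 1.30 to 4.62 and 3.94 CPM in USP18-/- cells, by 1.65 ± 0.30 and 1.73 ± 0.34 on the log2 scale (edgeR adjusted p = 3.96e-06 and 1.98e-05). In WT cells with IFN these regions were at 1.93 and 2.97, and 0.545 and 0.974 CPM.

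Of 29 tested regions at myeloid regulators and monocyte genes, 2 rose and 1 fell with IFN in USP18-/- cells (6.90% and 3.45%, against 7.14% and 4.28%), DESeq2 calling 0, and 5 were higher and 5 lower in USP18-/- than in WT cells with IFN (17.2% each, against 11.3% and 13.4%). The region in intron 12 of 22 of CSF1R (chr5:150064930-150065930), the macrophage growth factor receptor, held 12.8 and 16 CPM in WT, 19.4 and 17.5 in WT with IFN, 4.28 and 4.57 in USP18-/- and 8.39 and 8.36 in USP18-/- with IFN, so that it was lower in USP18-/- cells without and with IFN (-1.70 ± 0.19 and -1.14 ± 0.17 on the log2 scale, edgeR adjusted p = 3.04e-12 and 9.97e-09). The IRF5 region (chr7:128940749-128941749, intron 1 of 8) held 24.5 to 32.1 CPM in WT libraries, 39.2 and 43.7 in USP18-/- and 63.1 and 64.1 in USP18-/- with IFN, and its log2 difference to WT was 0.45 ± 0.11 without IFN, under 2-fold, and 1.31 ± 0.11 with IFN (edgeR adjusted p = 1.72e-18). The VCAN region (chr5:83510017-83511017, intron 5 of 14 of the versican gene, with an ISRE) went from 0.480 and 0.192 to 2.75 and 2.82 CPM. It passed the filter only through the USP18-/- + IFN group, so it had to rise. Of 10 tested regions at integrated stress response genes 0 were called with IFN in USP18-/- cells by edgeR or DESeq2, with 1 lower at an unadjusted p under 0.05, and the DDIT4 region (chr10:72247790-72248790, nearest to the gene of an mTORC1 inhibitor) was at 15.3 and 17.3 CPM in USP18-/- against 8.22 to 9.92 in the other 6 libraries. The regions in PSAT1, a gene of serine synthesis, and near CEBPG, a partner of ATF4, were at 0.436 to 2.68 CPM in the 4 USP18-/- libraries. The windows of the CSF1R, IRF5 and DDIT4 regions overlap another window, so these regions share tags with a neighbour.

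The comparison of the genotypes differed by position. Of 627 tested single-peak regions within 3000 bp of a start site, 8.13% were higher and 7.18% lower in untreated USP18-/- than in WT cells, with a median log2 difference of 0.12, and of the 7042 farther away 4.03% were higher and 10.7% lower, and their median was -0.14. Over all tested regions 5.66% were higher and 10.8% lower. By chromosome the median ran from -0.40 on chromosome 5 to 0.21 on chromosome 19. On these, 86 of 489 (17.6%) and 8 of 195 single-peak regions (4.10%) were lower. Position and chromosome were not compared in 8-peak regions here, so neither pattern can be called particular to single-peak regions. For IFN in USP18-/- cells the median was 0.033 near and -0.0036 away from start sites. In both 6.86% were higher, against 7.14% of all tested regions.

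Changes of single-peak regions resembled those of the nearest 8-peak region most closely within 1000 bp, and less with distance. Here the nearest 8-peak region was taken from the whole table with any annotation, so it could also lie at a promoter, exon or repeat. The Pearson r of their log2 changes for IFN in USP18-/- cells was 0.91 over 1440 pairs within 1000 bp, whose windows can share tags, 0.44 over 1683 pairs at 1000 to 5000 bp, 0.20 over 2716 at 5000 to 20000 bp and 0.13 over 1222 pairs farther apart. For USP18-/- against WT without IFN it was 0.93, 0.56, 0.37 and 0.26, and for IFN in WT 0.65, 0.069, 0.024 and -0.019. These are correlations across regions measured in the same libraries and are given as a description. Of the single-peak regions called with IFN in USP18-/- cells, the nearest 8-peak region was called in the same direction for 177 of 229 within 1000 bp (77.3%), 62 of 185 at 1000 to 5000 bp (33.5%) and 17 of 105 beyond 20000 bp (16.2%).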

How the data were processed

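H3K27ac ChIP-seq of WT and USP18-/- THP-1 cells with and without IFNα was analysed in 8 libraries, 2 per group, and the 8 input libraries and the ATAC-seq signal were not analysed here. As deposited, a value is an expected count of tags in steps of 0.5, without normalization. It comes from the authors' Bowtie2 alignment of read pairs (hg38, default parameters) and their HOMER count of tags in a 1000 bp window at each merged ATAC-seq peak. ATAC-seq peaks were called by the authors per library at a size of 200 bp and merged, and the deposited peak score and the deposited names of the lists that held a peak were used as labels of a region. Versions of these tools were not given in the sources used here. Of the values, 52.2% were whole numbers, and 0 value columns were left unmapped.

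Counts were rounded to whole numbers, filtered to at least 10 counts in at least 2 libraries, scaled by TMM, and fitted over all regions with 1 mean per group in edgeR 4.0.16 (quasi-likelihood test, limma 3.58.1, R 4.3.3) with Benjamini-Hochberg adjustment. Calls needed more than 2-fold and adjusted p under 0.05, as in the study's methods. DESeq2 1.42.0 was an alternative. CPM is a region's tags scaled to the TMM effective library size (the tags in all regions times the TMM factor, 0.880 to 1.09). The SE of a log2 fold change was worked back from the test, as its absolute value over the square root of the F statistic. It is therefore not a separate measure of spread. With 9046141 to 12935454 tags in regions per library and 2 libraries per group, precision rests on a spread shared across regions.

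Members and lists were chosen with earlier results of these data known. Named regions are, per contrast, the 3 called regions that rose most and the 3 that fell most among single-peak regions with a mean of at least 1 CPM, groups that did not overlap and a window that overlapped no other, at most 1 per nearest gene, and for each gene list the 3 tested regions with the smallest p for IFN in USP18-/- cells. For IFN in WT cells 2 falls met this rule. Regions with printed ISRE sites were chosen after their values were seen. Shares of tags and median levels are given per library without a p, since they are scores over the members. Motifs were matched as exact letters in hg38 with Python 3.11.15. Alternatives were the sum of counts as scale, DESeq2, other filters, distal regions fitted alone, windows without overlap, the adjusted p alone, a replicate block and each library left out. The unrounded fit, the subsets by ATAC-seq list and the means without the largest regions were added after seeing the data.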

Additional observations from a re-analysis of the deposited data

Results flagged for a closer look

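The tested difference between the IFN effects in USP18-/- and WT cells (edgeR, Benjamini-Hochberg adjusted) singled out 316 single-peak regions with a larger and 135 with a smaller effect in USP18-/- cells. The 3 regions with the largest differences were those of CDRT15P1 (log2 5.10 ± 0.85 SE, edgeR adjusted p = 2.22e-06), IQSEC1 (5.04 ± 0.65, 1.99e-09) and PRR5 (4.53 ± 0.92, 0.000118). The untreated USP18-/- libraries held 0 and 3 tags in the CDRT15P1 region, and 1 treated WT library held none in the PRR5 region, so these fitted values depend on the prior count. Both regions passed the filter of 10 counts in 2 libraries only through the USP18-/- + IFN group (71 and 60.5 tags for CDRT15P1, 78 and 79.5 for PRR5, against 0 to 10 and 0 to 7 in the other 6 libraries), so they had to differ and their p supports nothing. The PRR5 call was lost without WT replicate 2 (3.91) and in DESeq2 (4.53).

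On the other side, the ADAM8 region (chr10:133264152-133265152, intron 20 of 21 of a metalloprotease gene) differed by -2.42 ± 0.60 (edgeR adjusted p = 0.00192). It held 0.826 and 1.04 CPM in WT, 1.24 and 2.00 in WT with IFN, 3.58 and 2.36 in USP18-/- and 1.29 and 0.563 in USP18-/- with IFN, and the call was lost without WT + IFN replicate 2 (-2.05). The ZC3H12C region (chr11:110077575-110078575, intergenic, nearest to a gene for an RNA-binding protein) differed by -2.23 ± 0.72 (edgeR adjusted p = 0.0271), with 1.03 and 0.545, 1.44 and 2.36, 1.09 and 1.15, and 0.444 and 0.704 CPM. Its call was lost without WT replicate 2 (-1.82), WT + IFN replicate 2 (-1.86), USP18-/- replicate 1 (-2.27) or 2 (-2.21), or USP18-/- + IFN replicate 1 (-1.93). The SEMA6D region (chr15:47740661-47741661, intron 1 of 16 of a semaphorin gene) differed by -2.19 ± 0.67 (edgeR adjusted p = 0.0171), with 1.29 and 0.726, 1.24 and 1.38, 1.48 and 2.98, and 0.533 and 0.751 CPM. Its call was lost without WT replicate 2 (-1.79), WT + IFN replicate 2 (-2.10), USP18-/- replicate 2 (-1.61) or USP18-/- + IFN replicate 1 (-1.99). In the latter 2 regions no library exceeded 2.98 CPM.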

How the results depend on the processing

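Counts are given as higher and lower calls of single-peak regions in the order IFN in WT, USP18-/- against WT untreated, the same with IFN, IFN in USP18-/-, and the difference of the IFN effects. Windows that overlap no other, of which fewer were tested (4944), gave 3 and 3, 163 and 420, 375 and 454, 284 and 122, and 151 and 46. DESeq2 gave 0 lower for IFN in WT, 494 lower untreated, 346 higher for IFN in USP18-/-, and 200 and 80 for the difference. The adjusted p alone gave 24 and 14 for IFN in WT, 611 higher untreated, 539 lower for IFN in USP18-/- and 230 lower for the difference. Scaling by the sum of counts gave 1399 lower with IFN and 211 lower for the difference, and the fit of distal regions alone gave 11 lower for IFN in WT. For the cases in which the setting does not itself reduce the regions tested, the cause was not tested.

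For regions of the USP18-/- + IFN lists with IFN in USP18-/- cells, DESeq2 gave 232 higher, windows without overlap 227 higher and 16 lower, the sum of counts 75 lower and the adjusted p alone 109 lower. For regions of the WT lists in untreated USP18-/- against WT, DESeq2 gave 168 lower, windows without overlap 154 lower and 23 higher, and the adjusted p alone 111 higher. Of ISRE regions DESeq2 called 93 higher.

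Leaving out 1 library gave 13 to 16 and 2 to 8, 294 to 337 and 663 to 799, 604 to 731 and 814 to 970, 431 to 529 and 229 to 278, and 241 to 311 and 116 to 155 calls. It gave 287 to 378 higher and 42 to 65 lower for the USP18-/- + IFN lists, 233 to 285 lower and 40 to 56 higher for the WT lists, and 110 to 143 ISRE regions higher. The difference in the share of distal tags was -0.209 to 0.00938 percentage points for USP18-/- against WT and 0.0702 to 0.214 for IFN against untreated.

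In percentage points of single-peak minus 8-peak regions called, the sum of counts gave -1.04 higher untreated, -0.633 higher and -4.92 lower with IFN, -3.58 lower for IFN in USP18-/- and -3.01 lower for the difference. The filter on the mean gave 0.484 lower untreated and 0.265 higher for IFN in USP18-/-, both reversed, and -0.221 higher and -2.75 lower with IFN, and -0.156 higher for the difference. Windows without overlap gave -2.17 and -2.33 untreated, -2.39 and -5.68 with IFN and -1.33 higher for the difference. As a share of all tags the difference between USP18-/- and WT was -0.370. The level over that of 8-peak regions, 0.558 as a mean of libraries, was 0.608 without overlap, 0.422 for means and 0.521 for introns.

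In motif shares, single-peak minus 8-peak regions, AP-1 turned from -0.675 to 0.356 points in the whole window and to 0.00871 without overlap. ISRE was 2.37 and CTCF -3.43 without overlap. In the whole window and without overlap PU.1 was -1.64 and -1.67 and C/EBP -1.02 and -1.65, and in the whole window NF-kB was -0.371 and RUNX -1.29.

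With the replicate block the counts were 16 and 7, 334 and 786, 725 and 915, 523 and 276, and 319 and 137. The deviations of libraries with the same number correlated at -0.003 to 0.058, so they share only a number. The difference of regions called higher with the block was -0.575 points for IFN in USP18-/-. Over the named regions, 2050 values under an alternative kept their direction and their side of the threshold, 62 lost and 28 gained a call, and none was reversed. Reads do not resolve small changes at these levels: the median single-peak region held 9 to 10 tags per library, and 71.5% of these regions were tested.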

Other observations

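Tags were unevenly spread over the single-peak regions. The MFSD2A region (chr1:39936404-39937404, intergenic, 18208 bp upstream of the start site) held 3958 to 6584 tags per library and 1.60% of all tags in single-peak regions, and the PPT1 region (chr1:40094173-40095173, intronic) held 3311 to 5777 tags and 1.39%. The next region held 1585 tags per library on average. Without the MFSD2A region, which belongs to them, the mean level of the USP18-/- + IFN list regions was 1.34 times higher with IFN in USP18-/- cells. The PPT1 region was lower in the 2 USP18-/- + IFN libraries (3565 and 3311 tags) than in the other 6 (4113 to 5777), and the MFSD2A region held 5681 tags or more in those 2 libraries.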
